A study of Mus musculus with 22 samples.

Results

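The Egfl7 interval is a stretch of 110 kb on mouse chromosome 2, from 26400000 to 26510000 in the mm9 build, that was drawn around the endothelial gene Egfl7 with its flanks. It was chosen by a measured value, the width of 1 ATAC-seq peak: the widest peak region of the control list lies in it. Members are the peak regions of either deposited list whose midpoint falls in the interval. There are 97 of them, 40 in the gTKO list and 57 in the control list, out of 106825 regions on placed chromosomes, 49558 in the gTKO list and 57267 in the control list. The regions nearest the edges were a control region of 203 bp from 26400281 to 26400483, just inside the left edge, and on the right a gTKO region from 26502206 to 26502744 and a control region from 26502202 to 26502856. Just outside, the next regions to the left ended at 26390410 in the gTKO list and 26390435 in the control list, and those to the right began at 26516567 in the gTKO list and 26516519 in the control list.

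Endothelial cells were sorted from the retinas of C57BL/6 pups at postnatal day 6. The gTKO pups carried S1pr3-/-, S1pr1flox/flox and S1pr2flox/flox together with Rosa26-CreERT2, a recombinase expressed from a locus active in most tissues and not in endothelium alone. Control pups carried the same alleles without the recombinase, so S1pr3, a receptor for sphingosine 1-phosphate, was missing in both groups. Both received 100 µg tamoxifen by injection into the abdomen from day 1 to day 3. A replicate pooled the retinas of 4 to 6 pups, and each genotype had 3 ATAC-seq libraries. ATAC-seq marks accessible DNA by the cuts of the Tn5 transposase. The cell type label also calls these cells adult, against the stated age. All 3 libraries of a genotype name a single peak list, which holds positions only, with no height, fold enrichment or q value. There is thus no replicate error, and no p-value is given between the genotypes. How deeply the libraries were sequenced cannot be read from positions, and fewer reads would give fewer and narrower regions. Neither the loss of the receptor genes nor the endothelial identity of the cells was checked here, because no gene annotation of mm9 was used.

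Egfl7 encodes a secreted protein made mainly by endothelial cells, where it acts in the formation of vessel tubes and in the extracellular matrix. The gene hosts miR-126, an abundant endothelial microRNA known for sustaining VEGF signalling and vessel integrity. In the GRCm38.p6 annotation the nearest protein-coding genes are Notch1 on one side and Agpat2, followed by Dipk1b, on the other, and Mir126a and Mir126b lie inside Egfl7. NOTCH1 is the receptor through which endothelial cells divide the roles of tip and stalk cells, and AGPAT2 is an enzyme of phosphatidic acid synthesis in lipid metabolism. This annotation gives names and order only. Positions in GRCm38 and mm9 are not the same, so no region below is assigned to a gene, an exon or a promoter, and whether the widest region overlaps Egfl7 itself or a neighbour was not determined.

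Egfl7 was matched by symbol in RefSeq tables of GRCm38.p6, with 3 annotated starts on the plus strand. The 250 bases before each start are shown because they lie directly upstream of where the gene's transcripts begin. The mature miR-126a-3p is shown because its precursor lies in the gene, with the seed, bases 2 to 8, in capitals. In the promoters, capitals mark matches on either strand to CNGGAAGT (ETS factors) or CCNCNCCC (KLF and SP factors).
Egfl7 start 1, chr2:26580833-26581082: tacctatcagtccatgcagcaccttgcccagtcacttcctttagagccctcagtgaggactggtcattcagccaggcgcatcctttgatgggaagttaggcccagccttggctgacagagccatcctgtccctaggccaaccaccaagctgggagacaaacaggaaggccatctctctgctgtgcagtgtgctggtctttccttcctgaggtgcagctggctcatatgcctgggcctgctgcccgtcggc
Egfl7 start 2, chr2:26583615-26583864: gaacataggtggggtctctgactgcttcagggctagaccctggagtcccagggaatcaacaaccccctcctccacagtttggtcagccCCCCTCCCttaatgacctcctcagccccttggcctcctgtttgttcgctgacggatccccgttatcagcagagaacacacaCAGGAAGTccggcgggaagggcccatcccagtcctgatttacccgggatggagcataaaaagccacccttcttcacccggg
Egfl7 start 3, chr2:26586386-26586635: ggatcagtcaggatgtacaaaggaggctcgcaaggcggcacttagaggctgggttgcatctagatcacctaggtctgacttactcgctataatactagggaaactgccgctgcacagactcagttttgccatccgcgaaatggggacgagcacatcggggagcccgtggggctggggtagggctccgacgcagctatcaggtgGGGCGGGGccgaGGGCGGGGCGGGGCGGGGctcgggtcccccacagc
mmu-miR-126a-3p, chr2:26591402-26591423: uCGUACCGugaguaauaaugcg

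Of 5 motifs searched, CNGGAAGT occurred once before start 2, beginning 81 bases upstream of it, and in 7.58% of the 250-base windows before all 32851 starts in the table. CCNCNCCC occurred once before start 2 and 4 times, with overlaps, before start 3, and in 45.9% of all windows. The AP-1 motif TGANTCA was in none of the 3 windows and in 6.75% of all. Nor did they hold TGTTTAC, the FOX motif, found in 3.17% of all windows, or AGATAA, to which GATA factors bind, found in 9.99%. The window before start 3 had 63.2% G and C, against 58.0% before start 1 and 58.4% before start 2. ETS, FOX, GATA, KLF and AP-1 factors are all known in endothelial gene control, and the motifs were picked with these promoters in view.

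Less of the Egfl7 interval lay in peaks in the gTKO list than in the control list, and the shortfall was uneven along it. The 40 gTKO regions covered 23262 bp and the 57 control regions 49754 bp, a ratio of 0.468, while the ratio outside the interval was 0.771. Of the control-covered sequence in the interval, 45.9% was also covered in the gTKO list, against 71.6% outside it. Almost all gTKO sequence, 98.1%, lay in control regions. No gTKO region of the interval lacked a control partner, a region sharing at least 1 bp. With 0 of 40 the limit set by 3 counts is a share of 7.50%, and the exact upper limit is 8.81%. This rests on counting any shared bp: when at least 50% of both regions had to overlap, 25 of the 40 had no partner (62.5%, 95% Clopper-Pearson interval 45.8 to 77.3%), against 24.6% of all placed gTKO regions. Among the 25 are the 10 gTKO regions that met the 12713 bp control region whose width chose the interval. The widest of these 10 measured 3540 bp, so none could share 50% of that control region. The contrast is thus partly set by the choice of locus. With any shared bp, the share without a partner over all placed gTKO regions was 9.75%. The 0 of 40 is also partly set by the choice of locus. Those 10 regions have a partner in the control region that chose it, and control regions covered 49754 bp of the 110 kb. The upper limits are therefore no measure of a deficit against the series. Of the control regions 31 of 57 had no gTKO partner, 54.4% (95% Clopper-Pearson interval 40.7 to 67.6%), where 27.0% of all placed control regions had none. These intervals cover counting error only and treat neighbouring regions as independent.

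**Figure D1:**
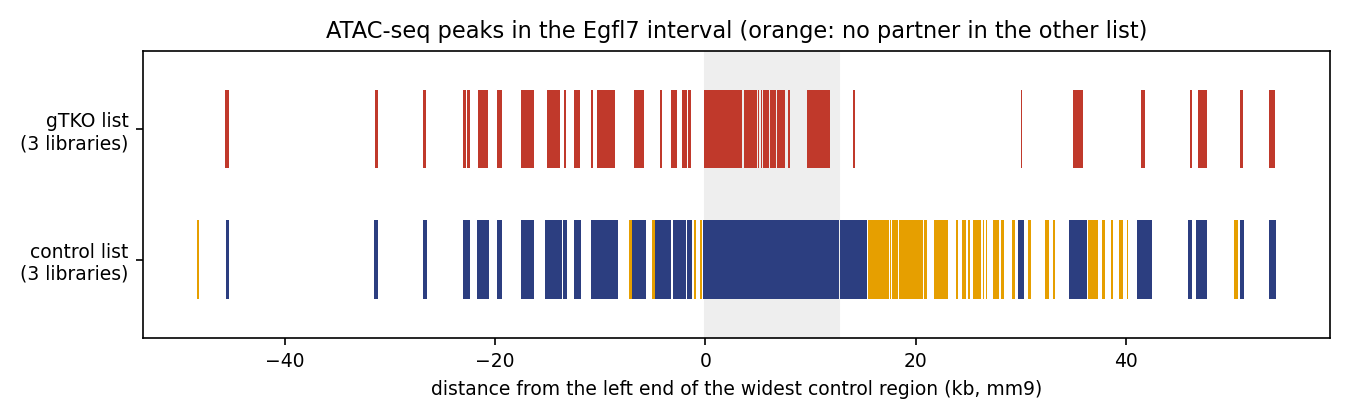
Peak regions of the gTKO list (upper row) and the control list (lower row) along the 110 kb of the Egfl7 interval, in kb from the left end of the widest control region, which is shaded. Regions in orange have no partner in the other list: 31 control regions, 26 of them right of the shaded region, and no gTKO region.

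Cut into pieces of 10 kb from its left end, the interval varied in how much of the control sequence was covered in the gTKO list. The share was 59.9% in the first piece and 60.4% in the second, which held 506 and 450 bp of control regions, and 82.2% in the third. In the fourth piece, from 30 to 40 kb, gTKO regions covered 5224 bp and control regions 6160 bp, and 83.9% of the control sequence was covered. In the fifth, which ends in the left part of the widest region, 49.9% was covered, with 4007 bp in gTKO regions and 7427 bp in control regions. The sixth piece, inside the widest region, had 7248 bp in gTKO regions and all 10000 bp in control regions. From 60 to 70 kb the values were 753 bp in the gTKO list and 9098 bp in the control list, a covered share of 8.28%, and from 70 to 80 kb they were 168 bp and 5148 bp, a share of 3.26%. In these 2 pieces the gTKO list was thus almost empty, where the control list still covered 91.0% and then 51.5% of the sequence. The first of them starts at 26460000, inside the widest region, which ends at 26461312. Part of the values of that piece therefore belongs to the widest region. Towards the right edge more of the control sequence was covered. Between 80 and 90 kb the covered share was 20.9%, between 90 and 100 kb 48.5%, and in the last piece 82.3%, with 539 bp in the gTKO list and 655 bp in the control list.

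**Figure D2:**
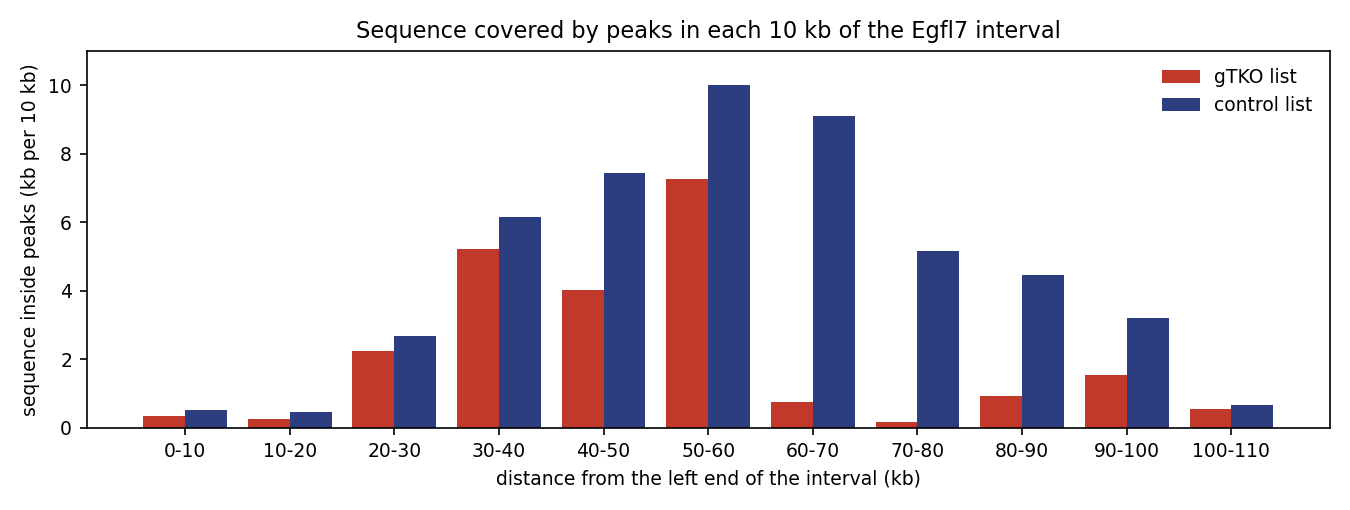
Sequence inside peaks, in kb, for each 10 kb of the Egfl7 interval, gTKO list on the left and control list on the right of each pair of bars. The lists differ little between 20 and 40 kb, while in the 2 pieces from 60 to 80 kb the gTKO list has 753 and 168 bp and the control list 9098 and 5148 bp.

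The stretch-by-stretch account chains regions of either list that lie no more than 3 kb apart, which gave 5 stretches. Left means lower and right higher coordinates on chromosome 2, and the share covered is that of a control region's base pairs lying in gTKO regions. The first stretch held the control region from 26400281 to 26400483, which had no partner and lay 2450 bp from the nearest gTKO region. It also held the only pair of the interval in which the gTKO region was the wider, at 341 bp from 26402934 to 26403274, against 303 bp from 26402968 to 26403270 in the control list. The second stretch was a single pair, a gTKO region of 272 bp from 26417201 to 26417472 and a control region of 450 bp from 26417059 to 26417508. So was the third, with 250 bp from 26421778 to 26422027 in the gTKO list and 385 bp from 26421708 to 26422092 in the control list. These 3 stretches are short and isolated, and both lists placed their regions at the same spots, save for the first control region.

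The fourth stretch ran over 65584 bp from 26425509 to 26491092 and held 32 gTKO regions covering 20638 bp and 48 control regions covering 45658 bp. At its left end the lists matched closely. The control region from 26425546 to 26426245 (700 bp) met 2 gTKO regions, from 26425509 to 26425821 (313 bp) and from 26425944 to 26426203 (260 bp), which covered 536 bp of it. The next pair differed by little, with 1004 bp from 26426932 to 26427935 in the gTKO list and 1053 bp from 26426922 to 26427974 in the control list. A gTKO region of 401 bp from 26428816 to 26429216 lay in the control region of 529 bp from 26428756 to 26429284. The pair that followed was nearly identical: 1174 bp from 26431110 to 26432283 in the gTKO list and 1215 bp from 26431112 to 26432326 in the control list, with start positions 2 bp apart.

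Further right, 1 gTKO region bridged a gap of the control list. It measured 1302 bp, from 26433512 to 26434813, and overlapped the control regions from 26433303 to 26434765 (1463 bp, 1254 bp covered) and from 26434787 to 26434984 (198 bp, 27 bp covered). The gTKO region from 26435169 to 26435352 (184 bp) lay in the control region from 26435090 to 26435430 (341 bp). Beside it, the gTKO region from 26436108 to 26436699 (592 bp) and the control region from 26436143 to 26436773 (631 bp) shared 557 bp. The widest control region in this left portion, 2634 bp from 26437688 to 26440321, held 2 gTKO regions, of 236 bp from 26437725 to 26437960 and of 1756 bp from 26438264 to 26440019. They covered 75.6% of it. Every control region from 26425546 to 26440321 therefore had a gTKO partner.

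Closer to the widest region the lists differed more. The control region from 26441315 to 26441595 (281 bp) had no partner, and its neighbour from 26441652 to 26442954 (1303 bp) held the gTKO region from 26441766 to 26442804 (1039 bp). No gTKO region met the control region from 26443517 to 26443839 (323 bp). The control region from 26443858 to 26445357 measured 1500 bp, of which 266 bp (17.7%) lay in 2 gTKO regions, from 26444272 to 26444509 (238 bp) and from 26445330 to 26445498 (169 bp). This was the least covered control region of over 1 kb on the left side. The second of these gTKO regions also reached into the control region from 26445482 to 26446725 (1244 bp). That region met 3 more, from 26445510 to 26445882 (373 bp), from 26446417 to 26446618 (202 bp) and from 26446674 to 26446860 (187 bp), and had 644 bp covered in all. The last of them lay mostly in the gap that follows, with 52 of its 187 bp inside a control region. A gTKO region of 288 bp from 26446909 to 26447196 lay in the control region of 420 bp from 26446866 to 26447285. The last control regions before the widest were 2 with no partner, from 26447523 to 26447747 (225 bp) and from 26448118 to 26448317 (200 bp), and 1 of 209 bp from 26448347 to 26448555 with 47 bp covered.

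The widest control region, 12713 bp from 26448600 to 26461312, was 1.68 times as wide as the next in the control list, at 7560 bp. Its width is what the interval was chosen for and is given as a description. In the gTKO list 10 separate regions met the same sequence, with 9 gaps between them, and covered 9141 bp (71.9%) of it. Its left part was the more complete, with 89.0% of the left-hand 6356 bp covered and 54.8% of the right-hand 6357 bp. The first gTKO region, from 26448509 to 26452048, measured 3540 bp, began 91 bp before the control region and was the widest gTKO region of the interval, with rank 15 in the whole gTKO list. The second followed after 227 bp, from 26452276 to 26453482 (1207 bp).

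In the middle of the widest control region the gTKO list held only short pieces. The first 4 were under 300 bp each, from 26453563 to 26453724 (162 bp), from 26453872 to 26454021 (150 bp), from 26454130 to 26454328 (199 bp) and from 26454353 to 26454613 (261 bp). Then came 2 longer ones, from 26454727 to 26455305 (579 bp) and from 26455456 to 26456205 (750 bp), and a short one from 26456505 to 26456661 (157 bp). The narrowest, at 150 bp, is as narrow as any peak of either list. The gaps between them measured 24 to 299 bp, with a median of 147 bp over all 9 gaps. A longer gap of 1604 bp, from 26456662 to 26458265, preceded the last gTKO region, from 26458266 to 26460492 (2227 bp). The final 820 bp, from 26460493 to 26461312, lay in no gTKO region. These last 2 uncovered segments made up 2424 bp of the 3572 bp not covered. Of the sequence covered in the gTKO list, 6883 bp lay in its 3 widest regions here and 2258 bp in the other 7.

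**Figure D3:**
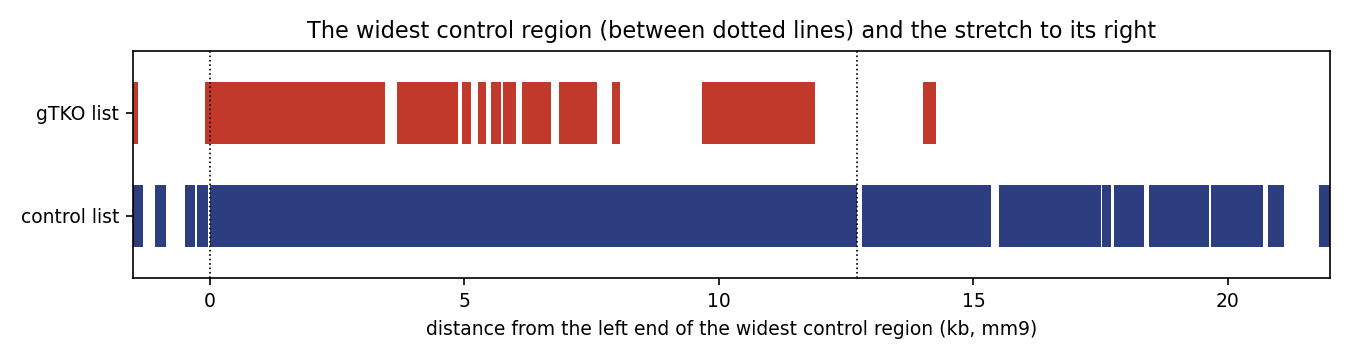
Regions of the gTKO list (upper row) and the control list (lower row) from 1.5 kb before to 22 kb after the left end of the widest control region, whose 12713 bp lie between the dotted lines. The gTKO list has 10 regions inside the lines and 1 region of 260 bp to their right, where the control list goes on almost without a gap to 26469695.

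Directly right of the widest region the control list continued and the gTKO list nearly stopped, though more gTKO regions lay farther right. All 34 control regions of the right side together covered 21231 bp, of which 3449 bp (16.2%) lay in gTKO regions. On the left side the share was 64.7% of 15810 bp, over 22 control regions. No gTKO partner was found for 26 of the 34 (76.5%, 95% interval 58.8 to 89.3%) and for 5 of the 22 on the left (22.7%, 7.82 to 45.4%). Beside the 27.0% of all placed control regions, the share on the left was near that of the series, and the share on the right was above it. A single gTKO region, from 26462605 to 26462864 (260 bp), lay in the adjoining control region from 26461419 to 26463952 (2534 bp) and covered 10.3% of it. From there to 26478576 the gTKO list was empty for 15711 bp, the longest gap between gTKO regions in the interval. Control regions covered 10884 bp of that gap, or 69.3%.

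This gap held 17 neighbouring control regions with no partner, from 26464112 to 26478059, that together covered 9552 bp. The first 6 were tightly packed, at gaps of less than 100 bp. They opened with the widest, from 26464112 to 26466107 (1996 bp), and 2 narrower regions, from 26466125 to 26466296 (172 bp) and from 26466366 to 26466957 (592 bp). A pair of over 1 kb each followed, from 26467053 to 26468222 (1170 bp) and from 26468276 to 26469289 (1014 bp), and the sixth ran from 26469389 to 26469695 (307 bp). The remaining 11 were narrower than 1 kb and mostly farther apart. Those that reached 500 bp ran from 26470764 to 26471705 (942 bp), from 26474085 to 26474854 (770 bp) and from 26475985 to 26476540 (556 bp). In the range of 300 bp to below 500 bp were those from 26470389 to 26470736 (348 bp), from 26472973 to 26473350 (378 bp) and from 26476714 to 26477047 (334 bp). Another 5 were under 300 bp and so in the class that most often lacks a partner: from 26472471 to 26472641 (171 bp), from 26473558 to 26473805 (248 bp), from 26474961 to 26475110 (150 bp), from 26475253 to 26475402 (150 bp) and from 26477806 to 26478059 (254 bp). The distance of the 17 to the nearest gTKO region was 516 to 7524 bp. Among 12862 runs of neighbouring control regions without a partner on placed chromosomes, chained at gaps of up to 3 kb, this run covered the most sequence. The next covered 9110 bp and 8517 bp. By number of regions it ranked 6, the longest run having 28. A run can cover much only where control regions are dense, and the interval ranked 2 of 12668 windows of its length by control sequence. The ranks of the run are thus a description and no test. No other chaining gap or partner rule is given for them.

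The rest of the fourth stretch had a few gTKO regions in a larger number of control regions. The control region from 26478332 to 26478901 (570 bp) held a gTKO region of 168 bp, from 26478576 to 26478743. The next 3 control regions had no partner, from 26479330 to 26479606 (277 bp), from 26480902 to 26481299 (398 bp) and from 26481696 to 26481900 (205 bp). A larger share was covered in the control region from 26483228 to 26484908 (1681 bp), where gTKO regions from 26483574 to 26484290 (717 bp) and from 26484350 to 26484564 (215 bp) covered 55.4%. It was followed by 5 more control regions without a partner, from 26485036 to 26485907 (872 bp), from 26486343 to 26486597 (255 bp), from 26487213 to 26487372 (160 bp), from 26487955 to 26488301 (347 bp) and from 26488671 to 26488822 (152 bp). A gTKO region of 328 bp, from 26490067 to 26490394, lay in the last control region of the stretch, from 26489620 to 26491092 (1473 bp), and covered 22.3% of it.

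In the fifth stretch, from 26494538 to 26502856, the lists matched better again. It held 5 gTKO regions covering 1761 bp and 5 control regions covering 2755 bp, and 63.9% of the control sequence was covered. A gTKO region of 154 bp, from 26494686 to 26494839, lay in a control region of 340 bp, from 26494538 to 26494877. Next to it, 2 gTKO regions lay in the control region from 26495267 to 26496320 (1054 bp), 1 from 26495417 to 26495982 (566 bp) and 1 from 26496011 to 26496267 (257 bp). Only the control region from 26498911 to 26499281 (371 bp) had no partner, at 174 bp from the nearest gTKO region. That gTKO region, from 26499456 to 26499700 (245 bp), lay in the control region from 26499450 to 26499784 (335 bp). The final pair measured 539 bp in the gTKO list and 655 bp in the control list. Beyond the interval, the 50 kb on its left and the 50 kb on its right together held 14 gTKO regions and 13 control regions, 84.9% of the control sequence was covered, and 1 control region had no partner. By this share the lists differed less in these flanks than inside the interval. Most of the flank sequence lay on the left, in 11 control regions of 9352 bp in all. The right flank held 2 control regions of 1576 bp in all, with 77.6% covered, and so offers little to compare.

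The widest region was part of a longer run of accessible sequence in the control list. With regions no more than 200 bp apart joined, the control list had a block of 21578 bp from 26448118 to 26469695, made of 10 regions that covered 20907 bp of it. It was the widest such block on the placed chromosomes, ahead of one of 14229 bp, but it contains the 12713 bp region whose width chose the locus, so this rank largely restates that choice. The gTKO list covered 9492 bp of it, and the longest gTKO block of the interval, joined in the same way, measured 3930 bp, from 26452276 to 26456205. Joined at 100 bp instead, the longest blocks measured 3540 bp in the gTKO list and 13195 bp in the control list. Joined at 500 bp, they measured 8153 bp and 26179 bp, and the control block then ranked 2, behind one of 28714 bp.

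In each width class, control regions lacked a partner more often in the interval than over the series. From 300 bp upward nearly all of those without a partner lay right of the widest region. Of the 15 control regions of at least 1000 bp in the interval, 3 had no gTKO partner (95% interval of the share 4.33 to 48.1%), and all 3 lay right of the widest region. On all placed chromosomes 0.469% of 8738 such regions had none. From 300 bp to below 1000 bp, 13 of 25 had none (52.0%, 31.3 to 72.2%), against 10.8% on all placed chromosomes. All of these but the region of 323 bp from 26443517 to 26443839 lay right of the widest region. Below 300 bp the numbers were 15 of 17 (88.2%, 63.6 to 98.5%) and 52.5%. The interval of the share lay above the value for all placed chromosomes in each of the 3 width classes. These regions are neighbours and were looked at because the locus stood out, so the shares describe it and are no test.

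**Figure D4:**
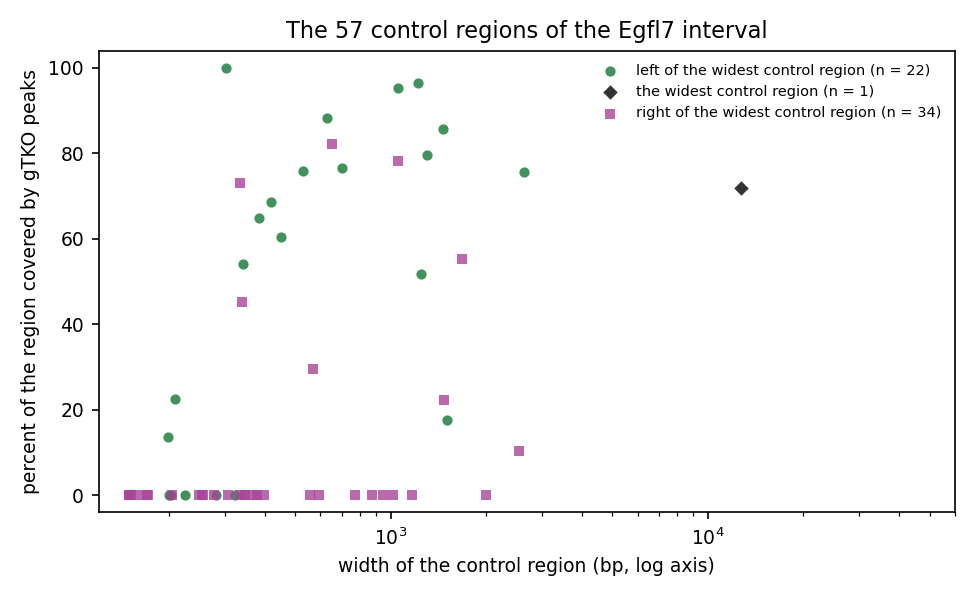
Each of the 57 control regions of the Egfl7 interval by its width (log axis, bp) and the percentage of it covered by gTKO peaks. The 22 regions left of the widest control region (circles) reach up to 100%, the 34 to its right (squares) lie mostly at 0%, up to 1996 bp wide, and the widest region (diamond) lies at 71.9%.

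Where a region of one list met a single region of the other, the gTKO region was mostly the narrower. This held in 15 of 16 such pairs of the interval, 93.8% (95% interval 69.8 to 99.8%), and in 79.5% of 37878 pairs on all placed chromosomes. The median width in the pairs of the interval was 308 bp in the gTKO list and 550 bp in the control list. The width in the gTKO list divided by that in the control list had a median of 0.709, against 0.866 outside the interval. On the left side the median ratio was 0.778 over 10 pairs, from 0.540 to 1.13, and on the right side 0.374 over 6 pairs, from 0.103 to 0.823. The lowest ratio belonged to the 2534 bp control region next to the widest one. Control regions that met 2 or more gTKO regions numbered 7 of 57, or 12.3% (5.08 to 23.7%), against 5.28% of all placed control regions.

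Set beside the other control regions of at least 2 kb, the widest region was covered to a smaller share than most. All of these were narrower, the next at 7560 bp. Elsewhere on the placed chromosomes 961 control regions were at least 2 kb wide, and the median share covered by gTKO regions was 88.4% (quartiles 81.2 and 93.6%). The 71.9% of the widest region lay below the lower of these quartiles, and 110 of the 961 were covered to a still smaller share. Among the regions nearest to it in width, at 7560, 6595, 6228 and 5809 bp, the shares were 78.7, 37.9, 50.0 and 92.1%. The share of the widest region lay between these. The interval held 2 more regions of at least 2 kb. The one of 2634 bp on the left had 75.6% covered and the one of 2534 bp on the right 10.3%. Elsewhere 13 of the 961 had less than 20% covered, as that last region had.

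**Figure D5:**
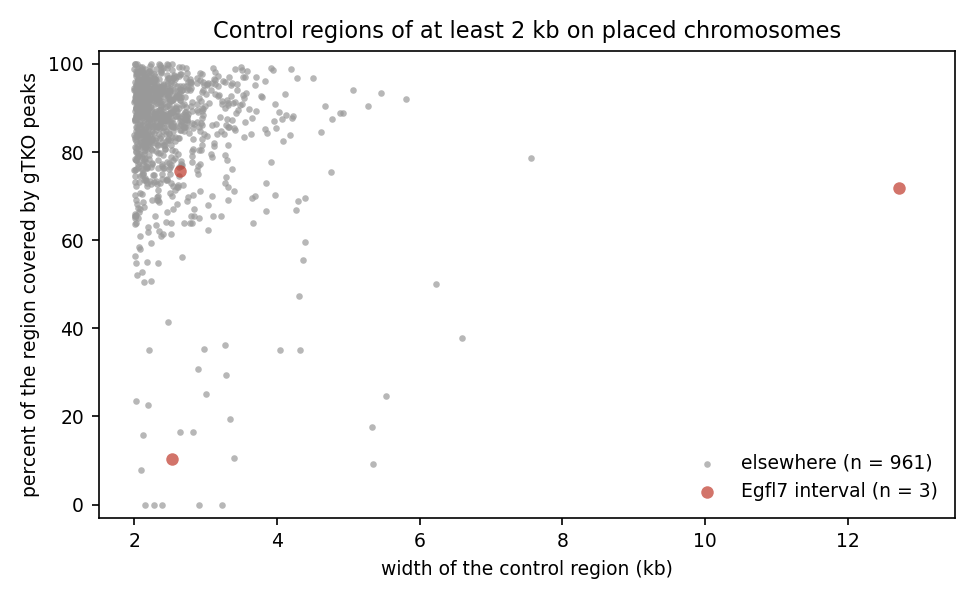
Control regions of at least 2 kb on the placed chromosomes by width (kb) and percentage covered by gTKO peaks, 961 elsewhere in grey and the 3 of the Egfl7 interval in red. The widest, at 12713 bp, is covered to 71.9%, and the other 2 to 75.6% and 10.3%.

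The contrast between the 2 sides of the widest region was larger than beside most other wide regions. In the 20 kb to its left, gTKO regions covered 8232 bp and control regions 12716 bp, and 61.9% of the control sequence was covered. In the 20 kb to its right they covered 428 bp and 13331 bp, and 3.21% was covered, a difference of 58.7 points between sides with about equal control coverage. Elsewhere, 284 wide control regions had at least 1000 bp of control regions in both flanks of this length. The median difference between their sides was 20.2 points, and 9 of them differed by as much or more. Their less covered side had a median of 51.4%, and 11 of the 284 were at 3.21% or below. The sides were compared here after their values had been seen, so this standing is a description and no test.

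Over whole windows, the interval had much less sequence in gTKO regions than in control regions. With the placed chromosomes cut into windows of 110 kb that continue its edges, 12668 windows held control sequence, and their median was 1248 bp in the gTKO list and 1571 bp in the control list. The interval ranked 3 by gTKO sequence and 2 by control sequence, behind a window of 54844 bp. By control minus gTKO sequence, 26492 bp, it ranked 1, ahead of 25753 bp in the next. These ranks include the region whose width chose the interval: without that region and the gTKO sequence in it, the interval had 37041 bp of control sequence and a difference of 22920 bp, and ranked 4 by both. The share of control sequence covered, 45.9%, was lower in 11 of 36 other windows with at least 20 kb of control sequence, whose median was 55.9% (range 5.05 to 92.7%). The difference cannot exceed a window's control sequence, so only windows with much of it can rank high by difference.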

How the data were processed

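Per the labels, the series has 22 samples. The 6 ATAC-seq libraries are analysed here, and the 16 RNA-seq libraries are not analysed here. The authors deposited 1 peak list per genotype, with sequence name, start and end of each peak and no other value. Per the submitters' processing notes, the build is mm9, and Bowtie2, Picard, MACS2 and bedtools are among the tools named. Their settings and any pooling of reads before calling were not given in the sources used here. Starts were counted from 0 in the files and are given from 1. Overlapping or touching peaks would have been merged, which changed no peak (50178 gTKO and 58311 control peaks). Sequences other than chromosomes 1 to 19, X and Y were left out. A partner shares at least 1 bp. Shares of regions have exact Clopper-Pearson intervals, and no test between genotypes was run. Every region of the interval is named. The overlap code was tested on simulated data and against bedtools 2.31.1. Python 3.11.15, numpy 2.4.6, scipy 1.17.1 and matplotlib 3.10.9 were used. The interval, its division and the comparisons were chosen with earlier results of these data known, and the comparison of the 2 sides after its values were seen.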

Additional observations from a re-analysis of the deposited data

How the results depend on the processing

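Of 38 alternative values, 18 stayed within 1.5 times of a reported count, or within the exact 95% interval of a reported share taken over its base pairs. That interval treats base pairs as independent, though those of a region go together, so it is too narrow. For shares, falling inside or outside it is therefore no measure of uncertainty. The 31 control regions without a partner became 25 to 42 under the alternatives run. The 42, out of the same 57, came from requiring 50% of both regions to overlap. The 25 came from settings that drop regions and is out of fewer than 57. Shares over all placed control regions at these settings are not given. The counts therefore do not show whether the excess over the series holds under them. gTKO regions without a partner, 0 as reported, numbered 25 when 50% of both regions had to overlap and 1 when 20% of the region itself had to. Of the 25, those that met the widest control region were too narrow to share 50% of it. When regions under 200 bp were dropped from both lists, 44.3% of the control sequence in the interval was covered, 6 gTKO regions met the widest control region and covered 66.6% of it, and 15.4% was covered to its right. When those under 300 bp were dropped, these values were 40.0%, 5, 64.6% and 11.3%. With the interval widened by 50 kb on each side, 52.9% of the control sequence was covered. When the narrowest control regions were dropped until both lists had equal numbers, 46.8% was covered, and 17.0% on the right side. Joining gTKO regions up to 100 bp apart raised the covered share of the widest region to 72.7%, and up to 500 bp apart left 2 gTKO regions there and a share of 80.9%. On the right side both joins gave 16.7%, beside the reported 16.2%. Chaining at 1 kb gave 11 stretches, at 2 kb 8, at 5 kb 2 and at 10 kb 2. The alternatives for the right side were chosen after seeing the data. No paired analysis was possible, since the 3 libraries of a genotype share 1 list, and so no replicate could be left out. Depth is unknown, and its part in regions of any width was not tested.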
